A study of Caenorhabditis elegans with 2 samples.

Results

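The col genes encode collagens, nearly all of them structural proteins of the nematode cuticle, and their promoters were examined here for binding of UNC-62. The members are the protein-coding genes whose symbols start with col- in the WBcel235 gene models (build ce11), 156 of 19985 protein-coding genes. They lie on chromosomes I (21), II (24), III (12), IV (41), V (31) and X (27). Each was searched for ChIP-seq summits in its promoter window, which runs between 1000 bp before and 200 bp after any of its transcript starts.

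The cuticle is the collagenous exoskeleton of Caenorhabditis elegans, secreted by the epidermis (hypodermis) and rebuilt at every moult, and different col genes are switched on in different moults. Cuticle collagens are short proteins with Gly-X-Y repeats that are trimmed, hydroxylated and cross-linked before they form the exoskeleton. UNC-62 is the Meis-class homeodomain protein of this worm, a DNA-binding partner of Hox proteins.

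Chromatin immunoprecipitation and sequencing (ChIP-seq) recovers DNA bound by a protein with an antibody, and the target named in the labels is unc-62. There were 2 biological replicates in 1 group and no second condition or control was analysed here. The animals were whole worms of strain OP600, pooled males and females, with the mutation unc119(ed3) and the insertion wgIs600. The insertion holds unc-62 fused to TY1, EGFP and FLAG, and a copy of unc119, so the animals carry the tagged gene in addition to any unc-62 of their own. The labels name the stage as dauer in one field and as D4 worms in another, which was not resolved. Whole animals mix all tissues, so binding in the epidermis cannot be told apart from binding elsewhere.

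The data are lists of regions with a summit and the authors' signal value, an enrichment per region whose scale is not stated. The lists of replicate 1 and replicate 2 held 30000 regions each and include background by design. The list called on both replicates together (pooled) held 2155 regions, and the reproducible list, thresholded by the irreproducible discovery rate, held 95. Signals were compared only within a list, where rank 1 is the highest signal. Sequencing depth is unknown from these lists, and intervals below are exact 95% binomial intervals that cover counting error only. With 1 group and no second condition, no test between conditions was possible, and none was made over the gene list.

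The col genes whose windows held a comparatively high signal in both replicates are shown first by sequence, because the values below turn on them. Each stretch surrounds the summit of the pooled region and is read 5′ to 3′ on the strand of the gene, from the ce11 genome (RefSeq WBcel235), without annotated UTR bases. Capitals mark matches on either strand to GAGAGA, to TGACAG (the core that Meis proteins bind) or to the GATA-type hexamers TGATAA and AGATAA. The stretches of col-176 and col-107 are coding sequence of those genes, and the other 3 are intergenic.
col-176 (chrX:10077627-10077741, plus strand): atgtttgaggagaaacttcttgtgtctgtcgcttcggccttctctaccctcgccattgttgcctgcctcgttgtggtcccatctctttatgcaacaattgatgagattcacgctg
col-166 (chrX:6279817-6279937, plus strand): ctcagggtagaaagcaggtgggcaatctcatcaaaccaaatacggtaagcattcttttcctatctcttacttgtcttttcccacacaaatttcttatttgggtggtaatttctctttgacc
col-107 (chrIV:1548743-1548863, plus strand): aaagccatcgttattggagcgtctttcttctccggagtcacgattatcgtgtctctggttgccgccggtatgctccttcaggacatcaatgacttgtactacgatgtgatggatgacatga
col-167 (chrX:6323230-6323350, plus strand): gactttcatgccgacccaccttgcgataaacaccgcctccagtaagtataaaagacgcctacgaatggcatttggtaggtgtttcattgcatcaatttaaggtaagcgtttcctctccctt
col-159 and col-160 (chrV:13202307-13202427, minus strand): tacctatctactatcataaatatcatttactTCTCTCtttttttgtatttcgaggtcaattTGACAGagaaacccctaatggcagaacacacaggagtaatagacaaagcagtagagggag
Only the last of these 5 holds capitals, with a TGACAG and a TCTCTC, the reverse complement of GAGAGA. The absence of capitals elsewhere says only that these letters are not in those stretches.

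No reproducible region had its summit in the promoter window of a col gene. The count was 0 of 156, with an exact 95% interval up to 2.34% (the limit that 3 genes give is 1.92%), against 0.280% of all protein-coding genes. A count of 0 is therefore close to what the background share gives for so few regions. The nearest reproducible summit to a col start lay 14606 bp from col-74, in intergenic sequence of chromosome II (5844808 to 5845151). The median distance from a start to the nearest reproducible summit on its chromosome was 447236 bp for col genes and 524472 bp for other nuclear protein-coding genes.

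In the pooled list 11 of 156 col genes had a summit in the window, or 7.05% (3.57 to 12.3), beside 4.20% of all protein-coding genes and 4.18% (828 of 19829) of the others. Weighting the other genes to the chromosomes of the col genes gave 4.16%, or 6.50 genes in 156. The 11 genes share 10 regions, since col-159 and col-160 have the same one. All 10 regions fell outside the reproducible list, whose lowest pooled signal was 31.2. The pooled q values of these regions ran between 0.164 and 0.908, and the lowest q in the whole pooled list was 0.151. None of these regions passed the authors' reproducibility threshold.

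In the replicates, 76 of 156 col genes had a summit in the replicate 1 list, or 48.7% (40.6 to 56.8), beside 39.9% of all protein-coding genes. In the replicate 2 list 71 did, or 45.5% (37.5 to 53.7), beside 38.8%. The other protein-coding genes stood at 39.8% in replicate 1 and 38.8% in replicate 2. Summits of both replicates within 200 bp of each other, called matched here, were found at 26 col genes, or 16.7% (11.2 to 23.5), beside 10.7% of all protein-coding genes and 10.6% of the others. The col share was above the other share in the pooled list, in each replicate and for matched summits, but was 0 in the reproducible list.

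**Figure D1:**
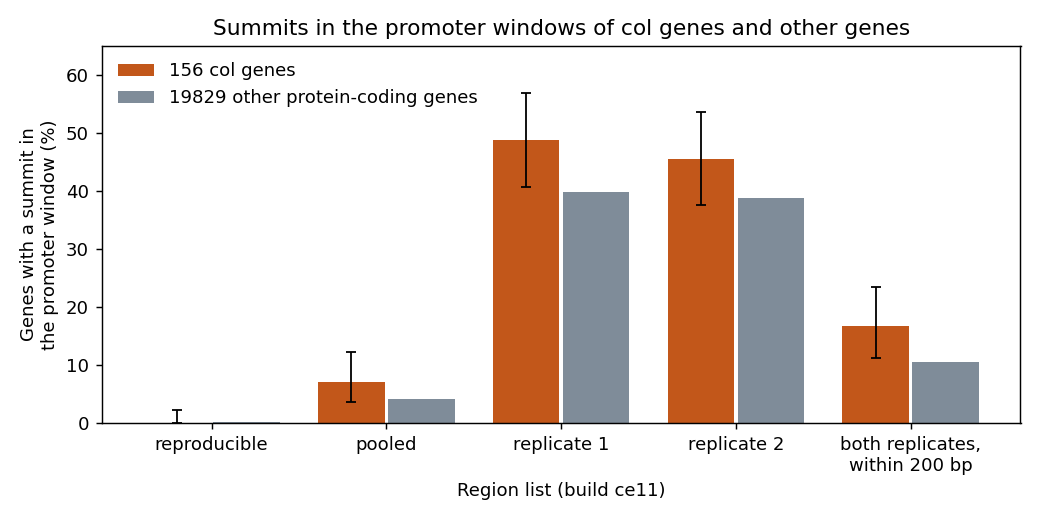
Percent of genes with a summit in the promoter window (y axis) in each region list (x axis), for the 156 col genes (orange, exact 95% intervals) and the 19829 other protein-coding genes (grey). The orange bar is the higher of each pair except in the reproducible list, where it is 0.

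The median window was 1201 bp in col genes and 1201 bp in other nuclear protein-coding genes, and 87.2% of col genes had a single transcript start, against 72.5% of the others. Genes with several starts have more window, so the mean was 1266 bp in col genes and 1461 bp in the others. Col genes are compact, with a median span of 1220 bp against 2038 bp. Per 100 kb of window there were 5.57 pooled summits at col genes and 2.95 at the others, 44.6 and 34.1 in replicate 1, and 40 and 32.9 in replicate 2. Median GC content of the window was 35.8% in col genes and 34.97% in the others.

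col-176 (WBGene00000749, X 10077597 to 10078728, plus strand) had the highest pooled signal among the col genes, 29.5 at rank 113 of 2155. Its region, at X 10077509 to 10077852, had a signal of 12.6 in replicate 1 (rank 417) and 15.7 in replicate 2 (rank 126). The pooled summit lay 84 bp inside the gene, in its coding exon, and the replicate summits 81 bp and 124 bp inside. In replicate 2 this was the single col-window region with a q value under 0.05 (q = 0.0279), and in replicate 1 its q was 0.0684. Both replicates thus placed col-176 within the first 500 regions.

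col-166 (WBGene00000739, X 6280016 to 6280921, plus strand) had a pooled signal of 27.6 at rank 140, with the region at X 6279705 to 6280048 and the summit 139 bp upstream. The signal was 18.6 in replicate 1 (rank 84, q = 0.0424) and 10.9 in replicate 2 (rank 964, q = 0.223). It held the best replicate 1 rank of any col gene. Its neighbour col-167 (WBGene00000740, X 6323488 to 6324393, plus strand) had a pooled signal of 18.01 at rank 982, with the region at X 6323118 to 6323461 and the summit 198 bp upstream. The signal at col-167 was 9.09 in replicate 1 (rank 2284) and 8.46 in replicate 2 (rank 3548).

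These genes open a run of 6 col genes on the plus strand of X, col-166 to col-171, which spans 55206 bp and whose genes are 903 to 924 bp long. A gap of 42566 bp separates col-166 from col-167. Summits of both replicates were present at 5 of the 6, beside 19.7% of other nuclear protein-coding genes. They were matched at 4, beside 10.7% of all protein-coding genes. This run was not among the planned groups. A pooled summit was at 2 of the 6, col-166 and col-167, beside 4.20% of all protein-coding genes. Of the other 21 col genes on X, 3 had matched summits (beside 11.8% of other X genes) and 2 a pooled one (beside 5.44%). At col-168 the matched signals were 7.66 in replicate 1 (rank 4819) and 5.95 in replicate 2 (rank 13018), at 390 and 348 bp upstream. At col-170 they were 8.19 (rank 3625) and 6.15 (rank 11864), at 143 and 283 bp upstream. col-171 had summits of both replicates farther apart, with signals of 5.17 and 5.37 at 219 and 713 bp upstream, and col-169 had none in either list. The genes of the run resemble each other in sequence: the windows of col-168 and col-170 share 139 of 1171 31-base words, and those of col-166 and col-167 share 90. The pooled regions at col-166 and col-167 nevertheless hold only words that occur once in the genome (100% of 31-mers).

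col-107 (WBGene00000681, IV 1548721 to 1549714, plus strand) had a pooled signal of 25.2 at rank 185, from the region at IV 1548631 to 1548974. The signal was 12.8 in replicate 1 (rank 387) and 8.50 in replicate 2 (rank 3463). The summit lay 82 bp inside the coding exon of col-107, which is also an intron of C34H4.5 on the other strand, so this position belongs to both genes. Unlike most col regions, those at col-107 and col-176 had their pooled summits inside the gene, and the other 9 of the 11 genes had theirs upstream.

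col-159 (WBGene00000732, V 13198231 to 13202177) and col-160 (WBGene00000733, V 13200982 to 13202189), both on the minus strand, overlap in the gene models and share the region at V 13202195 to 13202538. Its pooled signal was 15.99 at rank 1835, and its summit lay 190 bp upstream of col-159 and 178 bp upstream of col-160. The signal was 8.69 in replicate 1 (rank 2829) and 8.82 in replicate 2 (rank 2888). The replicates ranked it almost equally. The 2 genes count as 2 of the 11 but rest on a single region.

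The remaining pooled regions differed between the replicates. At col-145 (WBGene00000718, V 9161992 to 9163005, minus strand) the pooled signal was 21.6 at rank 375 for the region at V 9163680 to 9164023, and replicate 1 had 15.98 at rank 141 (q = 0.0424), but replicate 2 had no summit within 200 bp. That summit lay 847 bp upstream of col-145 and 440 bp beyond the end of the next col gene, col-10. At col-114 (WBGene00000688, region at IV 7246809 to 7247152) the pooled signal was 18.1, with the summit 328 bp upstream and also in the window of D2024.1. Replicate 1 had 11.5 there (rank 701) and replicate 2 had 5.82 (rank 13827). At col-93 (WBGene00000668, region at III 10985726 to 10986069) the pooled signal was 17.6, with the summit 289 bp upstream, in an intron of dhc-4. Replicate 1 had 12.1 (rank 526) and replicate 2 had 4.59 (rank 24416). At col-180 (WBGene00000753, region at X 11712531 to 11712874) the pooled signal was 16.7, with the summit 423 bp upstream, and the replicates had 12.5 (rank 440) and 5.84 (rank 13733). At all 4 of these genes replicate 1 had the far higher rank, or the only summit within 200 bp. col-37 (WBGene00000614, region at V 12168532 to 12168875) had a pooled signal of 16.3, with the summit 951 bp upstream, in a coding exon of ZK863.1. It went the other way, with 6.45 (rank 9098) in replicate 1 and 8.32 (rank 3868) in replicate 2. The summit at col-37 lies close to the edge of the window.

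Several high ranks were seen in one replicate alone. Replicate 1 placed a summit at col-111 at rank 395 (signal 12.7, 147 bp inside), where replicate 2 had none in the window. Replicate 2 placed col-144 at rank 629 (signal 11.8, 70 bp inside) and col-65 at rank 1141 (signal 10.6, 898 bp upstream), where replicate 1 had none. At col-177 replicate 2 had rank 490 (signal 12.2, 377 bp upstream), and the best summit of replicate 1 was at rank 25257 (signal 4.27, 8 bp inside). Of the replicate 2 region at col-144, 87.9% of 31-base words occur once in the genome.

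**Figure D2:**
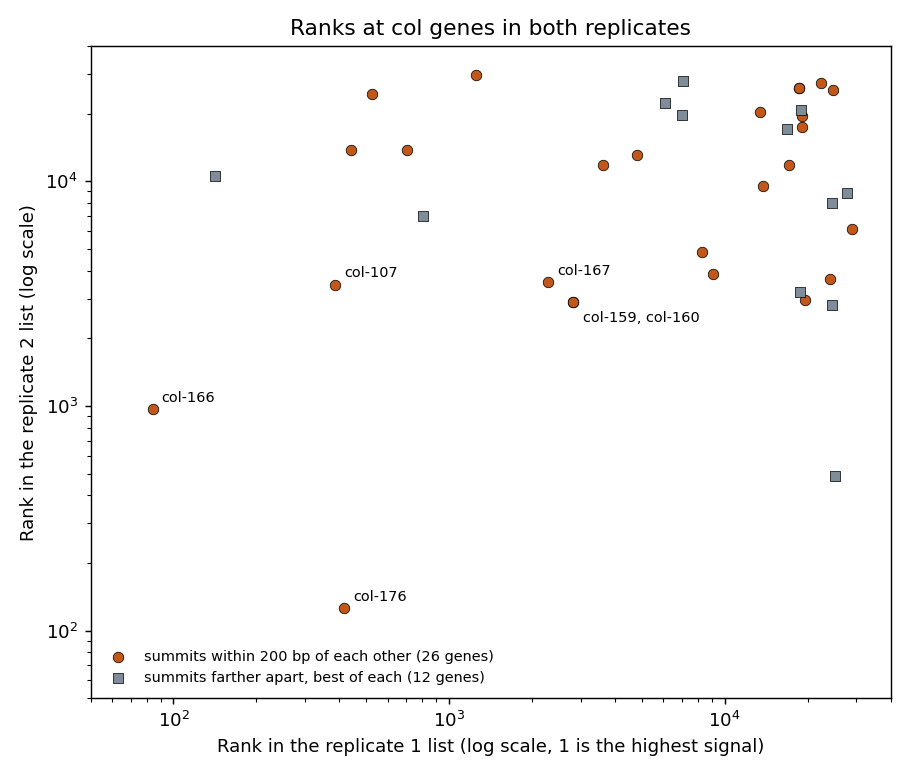
Rank of the summit at each col gene in replicate 1 (x axis, log scale) against replicate 2 (y axis, log scale), for the 26 genes with matched summits (orange circles) and the 12 with summits farther apart (grey squares, best of each list). col-176 and col-166 are the 2 circles nearest the lower left corner, and most points lie beyond rank 1000 in at least one replicate.

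Agreement between the replicates was limited over the col genes as a whole. Summits in both lists were found at 38 genes, of which 26 were matched and 12 were farther apart. The 12 made up 7.69% of col genes, against 9.11% of other nuclear protein-coding genes. A further 38 had a summit in replicate 1 alone (24.4%, against 20.02%) and 33 in replicate 2 alone (21.2%, against 19.05%). The other 47 had none in either list, or 30.1% against 41.2% of other nuclear protein-coding genes. The product of the 2 replicate shares comes to 34.6 col genes with both, where 38 were found. Among the others the product comes to 3057 genes, where 3912 were found. Unrelated lists would give the product only if every gene had the same chance of a summit. Windows differ in length, and fewer of the others have a single start (72.5%, against 87.2% of col genes). The product therefore cannot show how far the agreement exceeds that of unrelated lists in either set. Among col genes with a replicate 1 summit 34.2% had a match, against 26.7% of the others. The Spearman rho of rank over the 26 matched genes was 0.34, and over 2107 matched other genes it was 0.18. Both are descriptions across genes of the same libraries, and the 26 genes hold 24 distinct pairs of summits. Both ranks lay within the first 5000, a limit outside the plan, at 6 col genes, or 3.85%, against 1.25% of the others. These are col-176, col-166, col-107, col-167, col-159 and col-160, and the last 2 share the same summits. Within the first 10000, the planned limit, the shares were 5.13% of col genes and 2.50% of other protein-coding genes. By the worse of the 2 replicate ranks, next came col-42, where the matched summits had 6.63 (rank 8285) in replicate 1 and 7.87 (rank 4852) in replicate 2, then col-37, col-170 and col-168. The worse rank ran up to 29842, at col-10, whose matched signals were 10.3 in replicate 1 and 4.12 in replicate 2.

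Both matched summits fell between 400 bp upstream and 200 bp downstream at 19 of 26 genes, or 73.1%, against 52.8% of the 2107 matched other genes. This interval was chosen after the positions were seen. The median distance between the matched summits was 63 bp, against 67 bp for the others. Over all col-window summits, matched or not, the same interval held 55.7% in replicate 1 and 68.4% in replicate 2, against 55.6% and 55.1% at other genes, so in replicate 1 the shares were nearly equal. The bin from 400 to 200 bp upstream held 14.8% and 20.3%, against 18.1% and 17.4%. The last 200 bp upstream held 19.3% in replicate 1 and 22.8% in replicate 2, against 19.6% and 19.1% at other genes. The first 200 bp of the gene held 21.6% and 25.3%, against 17.9% and 18.6%.

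**Figure D3:**
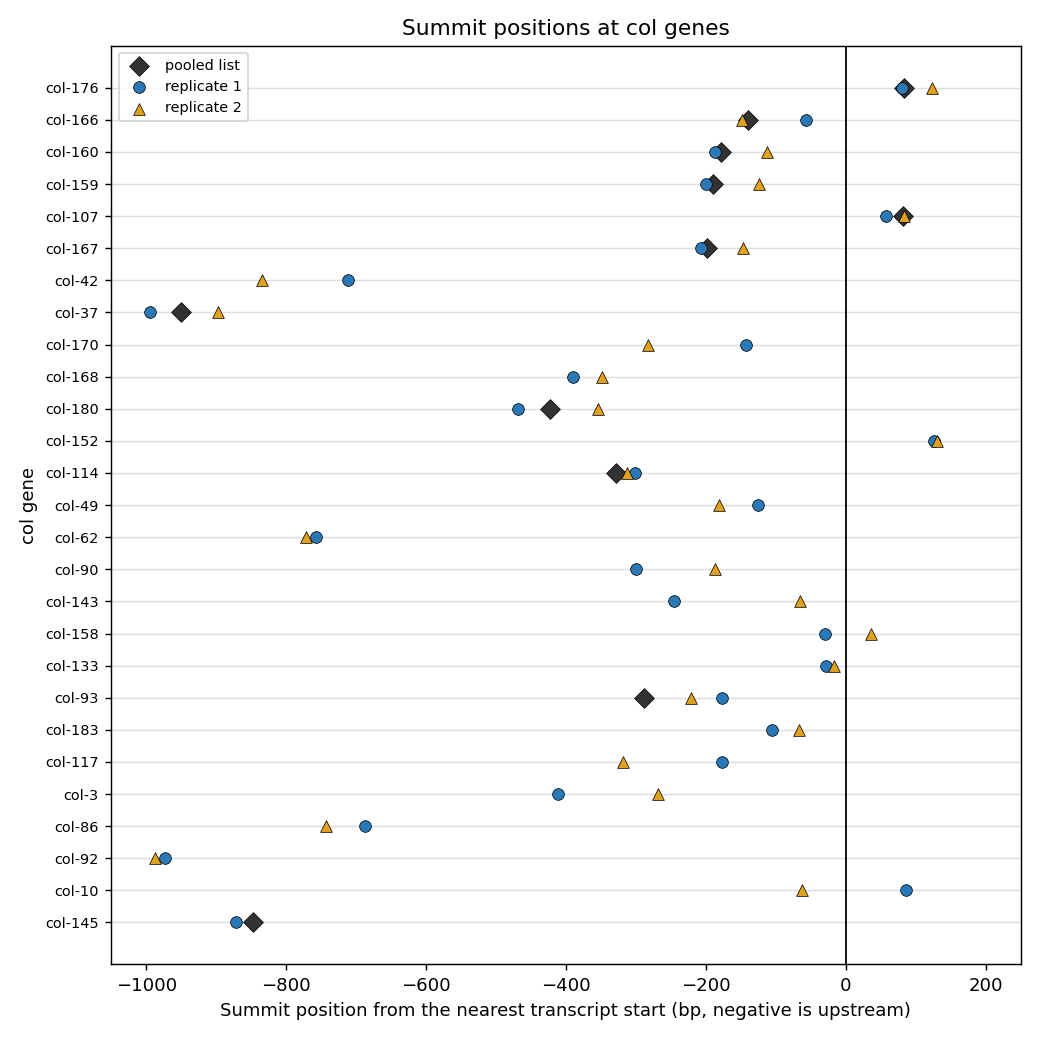
Position of the summit from the nearest transcript start (x axis, bp) at the 26 col genes with matched summits and at col-145 (y axis, ordered by the worse of the 2 replicate ranks, best at the top), in the pooled list (diamonds), replicate 1 (circles) and replicate 2 (triangles). Most symbols lie within 400 bp upstream or 200 bp inside, and col-42, col-37, col-62, col-86, col-92 and col-145 lie farther upstream, with col-180 (replicate 1 and pooled) and col-3 (replicate 1) just beyond 400 bp.

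The median signal at col genes was close to that at other genes in each list. The 10 pooled regions had a median signal of 18.1, from 15.99 to 29.5, and the 741 pooled regions at other genes also had a median of 18.1, with a maximum of 80.01. In replicate 1 the 85 distinct regions in col windows had a median of 5.24 against 5.52 for 8787 regions at other genes. In replicate 2 the median was 5.90 over 77 regions against 5.69 over 8497. The top 10% of the list held 18.8% of the col regions in replicate 1 and 15.6% in replicate 2, against 11.4% and 10.9% of the regions at other genes. A q value under 0.05 was given to 2 of 85 col regions in replicate 1 (col-166 and col-145) and 1 of 77 in replicate 2 (col-176). At other genes it was given to 76 of 8787 and 55 of 8497 regions.

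By chromosome, pooled summits were at 4 of 27 col genes on X, or 14.8% (4.19 to 33.7), against 5.44% of other X genes, and at 4 of 31 on V, or 12.9% (3.63 to 29.8), against 3.06%. They were at 2 of 41 on IV (4.88%, against 4.04%) and 1 of 12 on III (8.33%, against 5.06%). Chromosome I had 0 of 21 (against 4.24% of other genes) and II had 0 of 24 (against 3.85%), so a count of 0 lies within about 1 gene of what those shares give. Matched summits were at 7 of 27 on X, or 25.9%, against 11.8%, and at 8 of 31 on V, or 25.8%, against 8.89%. On I, II and IV the matched shares were 9.52%, 4.17% and 12.2%, against 10.9%, 9.81% and 11.6% of other genes. On III they were at 3 of 12, or 25% (5.49 to 57.2), against 12.3%, a share as high as on V and X but from few genes. For V and X together, a grouping made after these values were seen, matched summits were at 15 of 58 col genes, or 25.9% (15.3 to 39.0), against 9.93% of other genes. On I to IV they were at 11 of 98, or 11.2% (5.74 to 19.2), against 11.1%. The V and X count includes the run of 6 genes on X and the region shared by col-159 and col-160. Replicate 1 summits were at 51.7% of col genes on V and X (other genes 38.6%) and 46.9% on I to IV (other genes 40.5%). Replicate 2 summits were at 51.7% on V and X (other genes 39.2%) and 41.8% on I to IV (other genes 38.6%).

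**Figure D4:**
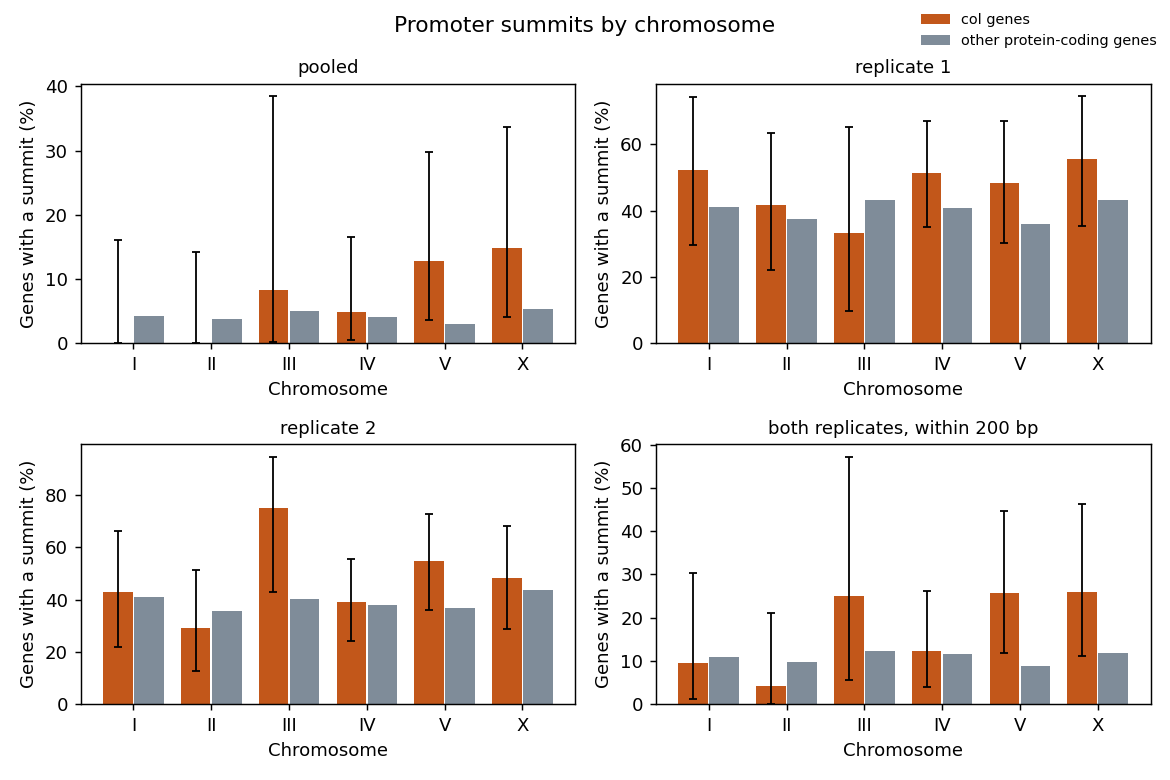
Percent of genes with a promoter summit (y axis) by chromosome (x axis) in the pooled list, each replicate, and both replicates within 200 bp, for col genes (orange, exact 95% intervals) and other protein-coding genes (grey). The intervals are wide. In the pooled and matched panels the orange bars exceed the grey by the widest margin on V and X. III is close behind in the matched panel (25% of 12 genes). In the replicate 2 panel the widest margin is on III (75% of 12 genes, against 40.1%). Replicate 1 goes the other way on III (33.3%, against 43.3%).

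Many col genes lie beside another member of the family. Of the 50 col genes with another col start within 5000 bp, 13 had matched summits, or 26%, and 5 had a pooled summit, or 10%. Of the 106 without such a neighbour, 13 had matched summits, or 12.3%, and 6 had a pooled summit, or 5.66%. All protein-coding genes stood at 10.7% matched and 4.20% pooled, so the matched share without a neighbour was near that of all genes. The split at 5000 bp was not among the planned comparisons. Neighbours can share a summit, as col-159 with col-160 and also col-3 with col-117, whose matched summits are the same and weak (signals of 4.96 and 4.45). Regions of which under 90% of 31-base words occur once made up 10.6% of col regions in replicate 1 and 6.49% in replicate 2, against 3.72% and 4.14% at other genes. Among the 10 pooled col regions there were 0.

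Of the 4 members known for one stage that were found in these gene models, 2 had a replicate 1 summit (beside 39.9% of all protein-coding genes) and 1 a replicate 2 summit (beside 38.8%), too few genes to set apart from those shares. Of the dauer-associated col genes, col-2 had a best signal of 8.68 in replicate 1 (rank 2837, 128 bp inside) and no summit in replicate 2, col-40 had none in either list, and col-6 was not found in these gene models. Of the adult genes, col-19, widely used as an adult marker, had no summit in either list. col-7 had weak summits, with a signal of 4.05 in replicate 1 (rank 27783, 198 bp inside) and 6.75 in replicate 2 (rank 8819, 515 bp upstream). None of these 4 genes had a pooled summit.

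Cuticle collagens named for their mutant shapes (blister, dumpy, long, roller and squat) were counted in the same way. Of 21 such genes 1 had a pooled summit (4.76%, beside 4.20% of all protein-coding genes), 8 a replicate 1 summit (38.1%, beside 39.9%) and 6 a replicate 2 summit (28.6%, beside 38.8%), and 1 was matched (4.76%, beside 10.7%). The single pooled and matched one was dpy-9, with a pooled signal of 16.1 (675 bp upstream), 7.51 in replicate 1 (rank 5233) and 8.02 in replicate 2 (rank 4500). The 9 genes without a replicate summit include dpy-7, dpy-10 and sqt-1. Of 3 basement membrane collagens, which line tissues rather than the cuticle, 3 had a replicate 1 summit (beside 39.9% of all protein-coding genes) and 2 a replicate 2 summit (beside 38.8%), and 0 had a pooled summit. cle-1 was the matched one, with best signals of 12.5 in replicate 1 (rank 435) and 4.23 in replicate 2 (rank 28587). Its matched summits lay 101 bp apart. That is the difference between a weaker replicate 1 summit (4.53, rank 22600, 703 bp upstream) and the replicate 2 summit (602 bp upstream). By this distance the matched pair holds the weaker replicate 1 summit and not the summit of 12.5.

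Of 10 genes for collagen processing, such as prolyl hydroxylases and procollagen proteases, 0 had a pooled summit, 4 a replicate 1 summit (40%) and 6 a replicate 2 summit (60%), beside 4.20%, 39.9% and 38.8% of all protein-coding genes. The matched one was pdi-2, a protein disulfide isomerase, with 5.70 in replicate 1 (rank 13167) and 5.76 in replicate 2 (rank 14271). Of 8 epidermal transcription factors 0 had a pooled summit (beside 4.20% of all protein-coding genes) and 2 were matched (25%, beside 10.7%). Replicate 1 summits were at 5 of them (62.5%, beside 39.9%) and replicate 2 summits at 7 (87.5%, beside 38.8%). These shares rest on 8 genes, whose windows were not matched in length to those of all genes, and were not tested. The matched ones were nhr-23, a nuclear receptor of the moulting cycle, with 5.62 in replicate 1 (rank 13738) and 10.8 in replicate 2 (rank 1021), and nhr-25, another nuclear receptor. Best signals at nhr-25 were 4.30 and 6.32. Its matched summits lay 44 bp apart, with 4.30 in replicate 1 (67 bp upstream) and 5.03 in replicate 2 (111 bp upstream).

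The letters of the windows were also counted. TGACAG, on either strand, was in 74 of 156 windows of 1201 bp around the outermost col start, or 47.4% (39.4 to 55.6), against 34.3% of 19816 other windows. In the 1000 bp upstream alone it was in 63 col windows, or 40.4%, against 29.04%. GAGAGA was in 57.7% of col windows and 50.8% of the others, TGATAA in 76.9% and 71.9%, and AGATAA in 61.5% and 55.7%. The last 2 hexamers share GATAA and can overlap other GATA-type sequences. All 4 hexamers were thus more frequent in col windows, and TGACAG by the widest margin.

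Matched summits were no more frequent in windows that held TGACAG. They were at 11 of 74 col windows with it, or 14.9%, and at 15 of 82 without it, or 18.3%. The lists differed in direction. Pooled summits were at 7 windows with TGACAG (9.46%) and 4 without it (4.88%). Replicate 1 summits were at 52.7% of windows with it and 45.1% without it, and replicate 2 summits at 41.9% and 48.8%. Within 100 bp of the 10 pooled col summits TGACAG was found at 1, the shared region of col-159 and col-160, against 7.43% of 740 pooled summits at other genes. GAGAGA was at 1 of 10, the same region, against 25.7%. TGATAA was at 4 of 10 (col-145, col-159 with col-160, col-180 and col-93), or 40% (12.2 to 73.8), against 13.6%. AGATAA, the other GATA-type hexamer, was at 1 of 10 (col-167), against 11.9%. In the replicates TGATAA was within 100 bp of 22.4% of col summits in replicate 1 and 28.6% in replicate 2, against 19.7% and 19.4% at other genes. TGACAG was within 100 bp of 8.24% and 11.7%, against 6.86% and 7.15%, and AGATAA of 14.1% and 16.9%, against 13.4% and 12.5%. GAGAGA was less frequent there, at 8.24% and 11.7%, against 13.6% and 14.7%. These are counts of letters and do not show which protein was bound.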

How the data were processed

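Region lists of UNC-62 ChIP-seq from 2 biological replicates were used, in 1 group, with replicate numbers from the labels. The deposited lists are in narrowPeak format on build ce11. Per the deposited file lists each replicate had its own list, 1 list was called on both replicates, and 1 was thresholded by IDR. Aligner, caller and versions: not given in the sources used here. The signal (column 7) is the authors' enrichment value and the −log10 q (column 9) is the authors' as well. Lists on ce10 were not used, as no gene models of that build were at hand.

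Positions are 1-based, with summits from columns 2 and 10. Genes came from Ensembl release 115 (46926 genes, WBcel235), sequence from RefSeq of the same assembly. Regions with equal signal share the best rank. Words of 31 bases were counted over the genome on both strands. The window assignment was tested on simulated summits and was correct for 400 of 400 genes. Named were all col genes with a pooled summit, the 5 best ranked in each replicate, the 10 matched genes with the best worse rank, and members of the gene lists; col-10, col-3, col-117, col-74, col-62, col-86, col-92 and C34H4.5, D2024.1, dhc-4 and ZK863.1 were named after their values were seen. The members and lists were chosen with earlier results of these data known. Intervals came from scipy 1.17.1 and plots from matplotlib 3.10.9, with numpy 2.4.6 under Python 3.11.15.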

Additional observations from a re-analysis of the deposited data

How the results depend on the processing

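The share of col genes stood above that of other protein-coding genes in all 27 alternatives run for the pooled, replicate 1, replicate 2 and matched shares, and 16 of the 27 stayed within the interval of the value in the report. The alternatives reuse the same summits and are not independent. Leaving 1 replicate out of the matched share only returns the share of the other replicate. With a window from 500 bp before to 100 bp after the start the col share was 28.8% in each replicate. Other genes stood at 24.8% in replicate 1 and 23.1% in replicate 2. From 2000 bp before to 500 bp after, the col share was 63.5% in replicate 1, 67.9% in replicate 2 and 26.3% for matched summits. Other genes stood at 60.1%, 59.8% and 19.05% in the same order. Among the 10000 regions of highest signal the col share was 20.5% in replicate 1, 18.6% in replicate 2 and 5.13% for matched summits. Other genes there stood at 16.3%, 15.5% and 2.50%. With a summit of each replicate anywhere in the window the matched share was 24.4%, against 19.7% of other genes. With 1 replicate left out it was 45.5% to 48.7%, against 38.8% to 39.8%. These shifts follow from the construction, since a wider window, a longer list or fewer conditions lets in more genes. The alternative with regions of at least 90% unique 31-mers was added after the data were seen. No paired analysis was possible because both replicates belong to 1 group. Depth is unknown, and 2 replicates without a control analysed here limit every value.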
